A study of Homo sapiens with 4 samples.

Results

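Cholesterol synthesis, uptake and efflux were followed through 31 listed genes in J.gamma1, a human line of T-cell acute lymphoblastic leukemia that was derived from Jurkat and lacks phospholipase C gamma 1. The members were chosen as named genes of sterol synthesis, of its control by SREBP2, and of uptake, storage and LXR-driven efflux, and all 31 were matched by symbol to an identifier among the 64252 of the deposited count table. Of the 4 libraries, 2 came from cells with the control hairpin RNA shNC, and the other 2 from cells with shELOVL5, a hairpin against the gene of ELOVL5, an elongase of polyunsaturated fatty acids. The labels name no other treatment, time or clone, the count columns of all 4 libraries carry a tag D4 that the labels do not explain, all 4 libraries share the same line, and the labels do not say whether replicates were separate cultures. The spread behind each p-value is therefore that among these samples alone, and it may be technical. The sources used here do not give the number of hairpins or their sequences.

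Cells make cholesterol from acetyl-CoA through mevalonate, farnesyl diphosphate and squalene, in the cytosol and the endoplasmic reticulum. When sterol in that membrane is low, SCAP carries the precursor of the transcription factor SREBP2 to the Golgi, where it is cut and released to turn on synthesis and uptake genes, and INSIG proteins hold SCAP back when sterol is plentiful. When oxysterols accumulate, the LXR nuclear receptors turn on export pumps and a ligase that removes lipoprotein receptors. Proliferating T cells raise sterol synthesis to build membrane, and LXR activity is known to oppose this.

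Total counts per library lay between 16254002 and 17338719, and 3 counts corresponded to 0.173 to 0.185 CPM (a library's counts for a gene scaled to a common total). Levels below are CPM scaled by TMM, a correction of library size for composition, and log2 fold changes are shELOVL5 over shNC from edgeR's quasi-likelihood test with Benjamini-Hochberg adjustment over 17461 tested genes. A gene passed the test when its adjusted p was under 0.05. ELOVL5 itself (chr6:53267398-53349179, GRCh38, GENCODE release 29) stood at 342 and 353 CPM in shNC and at 71.8 and 70.0 CPM in shELOVL5 (log2 fold change -2.29, SE 0.0486, adjusted p = 1.79e-09). Of 12 markers of T-lineage leukemia, 11 were at 5 CPM or more in every library, and the list summed to 2158 to 2170 CPM in shNC and 2019 to 2024 CPM in shELOVL5. Summed levels of the marker lists were 1.47 to 3.05 CPM for 6 myeloid genes, with CSF1R and LYZ at 0, and 0.515 to 1.06 CPM for 5 erythroid genes, HBB and ALAS2 among those at 0. For 7 epithelial or fibroblast genes the sum was 12.6 to 13.9 CPM, with EPCAM, CDH1 and COL1A2 at 0. The 5 B cell genes summed to 40.7 to 47.7 CPM in shNC and 26.9 to 29.8 CPM in shELOVL5, with CD79A the only one at 5 CPM or more in all libraries and at most 43.5 CPM. The part of this B cell sum in the sterol results was not tested.

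Sterol genes changed in part and not as a block. Of the 31 members, 7 rose and 2 fell, and 22 did not pass. The genes that rose encode the synthesis enzymes HMGCS1, MVD, SQLE and MSMO1, the sterol carrier STARD4, the receptor-degrading ligase MYLIP and the nuclear receptor LXR beta (NR1H2). Those that fell encode squalene synthase (FDFT1) and the sterol exporter ABCG1. The share that passed was 29%, against 20.4% of all tested genes. By direction, 22.6% of members rose, against a background of 9.22%, and 6.45% fell, against 11.2%. The median log2 fold change of the members was -0.016, and that of all tested genes was 0.006. The median size of change, without its sign, was 0.14 for the members and 0.24 for all tested genes. For 22 members (71%) the groups did not overlap, 12 with higher and 10 with lower levels in shELOVL5, against 60.1% of all tested genes. At an unadjusted p under 0.05 there were 13 of 31 members, against 32.7% of all tested genes. All 31 members passed the filter on low counts, ABCA1 through its shNC libraries alone. Summed over the members, the level was 2996 and 2965 CPM in shNC and 3101 and 3075 CPM in shELOVL5.

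**Figure D1:**
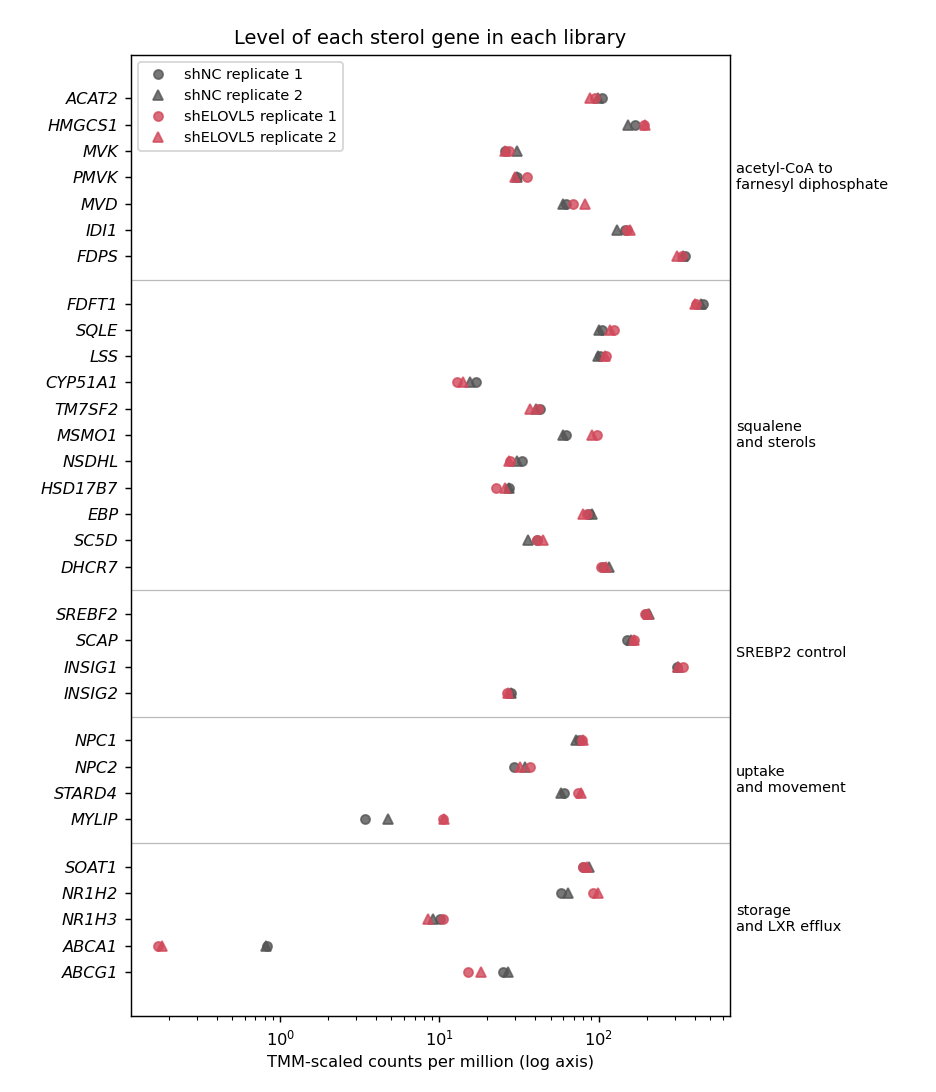
TMM-scaled CPM of the 31 sterol genes (log axis) in each of the 4 libraries, ordered by step. The groups lie apart for MSMO1, MYLIP, NR1H2, ABCG1 and ABCA1, while SREBF2, SOAT1 and NR1H3 overlap.

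**Figure D2:**
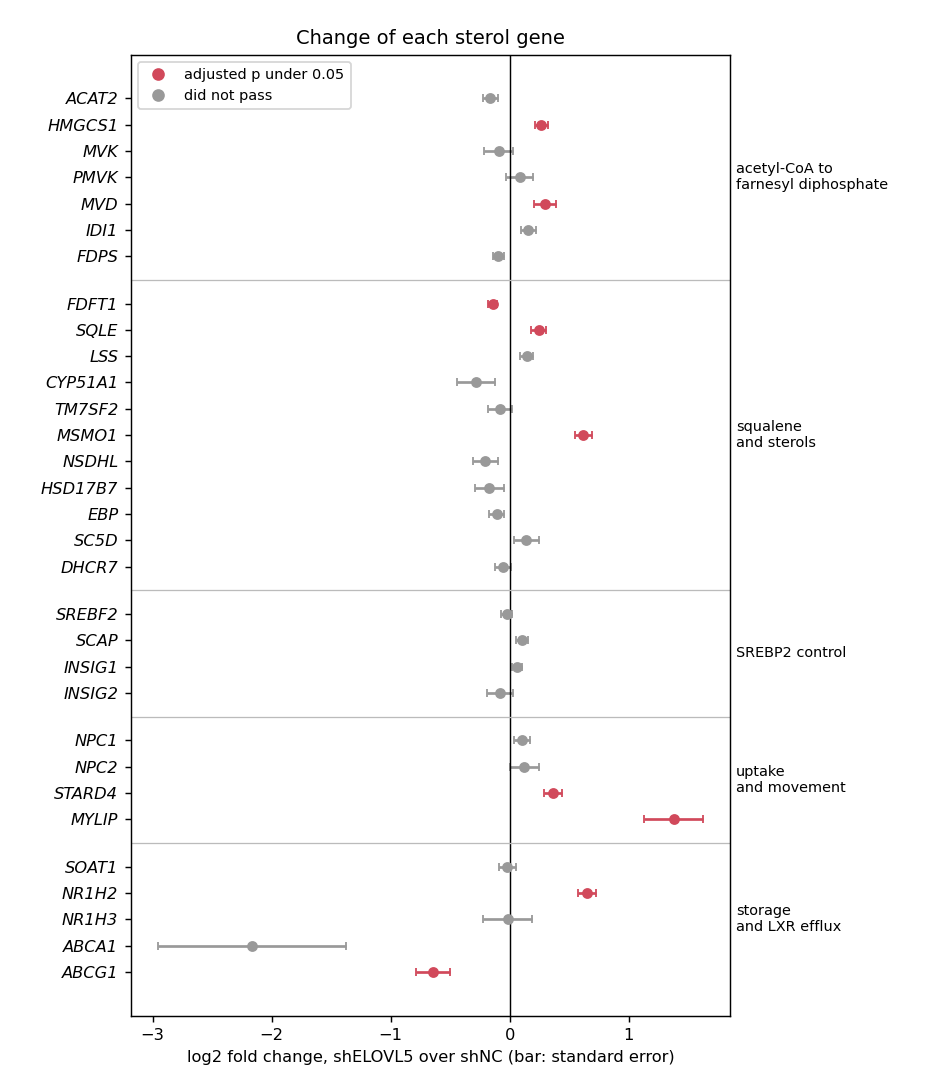
Log2 fold change of each sterol gene, shELOVL5 over shNC, with its standard error, ordered by step. Red points passed at an adjusted p under 0.05 (7 higher, 2 lower), and the 4 genes of SREBP2 control all lie near 0.

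Promoters of the members were read to see what they share besides their place in the pathway. RefSeq promoter windows on GRCh38.p14, reaching from 250 bases before to 50 bases after a listed start, were found for 27 members, with 37 windows in all (ACAT2, FDFT1, SQLE and ABCG1 were not analysed here). On either strand, the CCAAT box, a site of the factor NF-Y that works beside SREBP2 at many sterol promoters, was present in 22 of the 37 windows (59.5%), against 34.6% of all 35116 windows. Counted by gene, 20 of 27 members held it, against 42.6% of tested genes that had a window. It was found in 13 of the 15 synthesis enzymes with a window, PMVK and CYP51A1 being the others, and in 7 of 12 genes of control, movement, storage and efflux. The core of the sterol regulatory element, spelled TCACNCCAC, was found in 1 of 37 windows, that of SREBF2, against 1.13% of all windows. Other spellings of the element, and bases outside the windows, were not searched, so a window without a match may still hold one. No match of this core overlapped a CCAAT match, and the CCAAT matches that overlapped each other, on opposite strands, were in IDI1 and NSDHL. These counts describe letters in a window and were not tested.

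The 200 bases before the listed start are shown for the 6 genes that rose and have a window, because they can be read beside their changes, and for SREBF2, which holds the sterol element core. Capitals mark CCAAT, or ATTGG where it lies on the other strand, and the sterol element core in SREBF2. MSMO1 lies at chr4:165327469-165327668 on the plus strand, HMGCS1 at chr5:43313413-43313612 on the minus strand (the first of 2 listed starts) and MVD at chr16:88663092-88663291 on the minus strand. STARD4 lies at chr5:111512536-111512735 on the minus strand, MYLIP at chr6:16128886-16129085 on the plus strand, NR1H2 at chr19:50376257-50376456 on the plus strand and SREBF2 at chr22:41832905-41833104 on the plus strand.
MSMO1: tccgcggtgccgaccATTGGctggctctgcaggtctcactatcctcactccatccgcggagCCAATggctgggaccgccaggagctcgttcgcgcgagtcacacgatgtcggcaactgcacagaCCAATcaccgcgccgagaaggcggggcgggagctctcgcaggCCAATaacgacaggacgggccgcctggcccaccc
HMGCS1: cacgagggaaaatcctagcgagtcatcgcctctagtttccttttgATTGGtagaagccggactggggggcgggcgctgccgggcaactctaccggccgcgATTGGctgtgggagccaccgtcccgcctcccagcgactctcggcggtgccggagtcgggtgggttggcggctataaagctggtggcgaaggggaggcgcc
MVD: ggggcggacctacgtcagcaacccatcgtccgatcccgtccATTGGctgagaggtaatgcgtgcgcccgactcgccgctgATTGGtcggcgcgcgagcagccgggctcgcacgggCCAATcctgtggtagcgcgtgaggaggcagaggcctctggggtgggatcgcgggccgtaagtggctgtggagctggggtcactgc
STARD4: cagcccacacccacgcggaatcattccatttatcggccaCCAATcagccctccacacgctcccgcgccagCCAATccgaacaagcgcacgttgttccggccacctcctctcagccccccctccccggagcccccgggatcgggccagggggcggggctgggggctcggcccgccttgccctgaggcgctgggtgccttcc
MYLIP: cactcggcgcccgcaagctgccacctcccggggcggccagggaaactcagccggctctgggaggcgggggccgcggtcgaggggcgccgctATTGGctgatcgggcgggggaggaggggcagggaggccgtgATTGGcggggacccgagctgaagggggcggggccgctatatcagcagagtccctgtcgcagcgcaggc
NR1H2: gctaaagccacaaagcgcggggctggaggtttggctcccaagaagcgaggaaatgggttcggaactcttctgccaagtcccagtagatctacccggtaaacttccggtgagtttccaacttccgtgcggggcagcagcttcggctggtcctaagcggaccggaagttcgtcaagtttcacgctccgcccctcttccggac
SREBF2: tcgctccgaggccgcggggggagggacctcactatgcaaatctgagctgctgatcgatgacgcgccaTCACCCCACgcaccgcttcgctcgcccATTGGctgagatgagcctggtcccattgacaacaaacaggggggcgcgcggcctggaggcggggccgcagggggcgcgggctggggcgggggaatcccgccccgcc
MSMO1 has 4 CCAAT matches in this stretch, MVD has 3, and HMGCS1, STARD4 and MYLIP have 2 each. NR1H2, which rose as well, has none, so the box was not shared by all genes that rose, and 15 members that did not change past the threshold hold it too. The SREBF2 stretch has 1, which follows the sterol element core downstream.

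Of the 7 listed enzymes from acetyl-CoA to farnesyl diphosphate, 2 rose, none fell and 5 did not pass. Passing genes made up 28.6%, against 20.4% of all tested genes, so the count says little about the step. HMGCS1, the synthase that joins acetoacetyl-CoA and acetyl-CoA, stood at 170 and 153 CPM in shNC and at 192 and 197 CPM in shELOVL5. Both shELOVL5 libraries lay above both controls, and the log2 fold change was 0.27 (SE 0.057, adjusted p = 0.00801). It did not pass without shELOVL5 replicate 1 (adjusted p = 0.0539) or replicate 2 (0.0675), nor with no filter on low counts (0.0517). MVD, the decarboxylase that makes isopentenyl diphosphate, stood at 62.2 and 60.1 CPM in shNC and at 68.7 and 81.6 CPM in shELOVL5, with the upper value in replicate 2 (log2 fold change 0.30, SE 0.0905, adjusted p = 0.0414). It had a log2 fold change of 0.17 without shELOVL5 replicate 2 (adjusted p = 0.342), and it also did not pass by DESeq2 (0.0614), by limma-voom (0.0802), with robust=FALSE (0.0722), with no filter on low counts (0.141) or without shNC replicate 1 (0.0799) or 2 (0.154).

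IDI1, the isomerase of isopentenyl diphosphate, was at 147 and 130 CPM in shNC and at 151 and 158 CPM in shELOVL5 and did not pass (log2 fold change 0.16, SE 0.0642, adjusted p = 0.117). It passed without shNC replicate 1, the higher of the controls (0.24, adjusted p = 0.0209). FDPS, farnesyl diphosphate synthase and the member with the highest level per kilobase of exon in shNC, was at 349 and 340 CPM in shNC and at 334 and 312 CPM in shELOVL5 (log2 fold change -0.09, SE 0.0451, adjusted p = 0.182). ACAT2, the thiolase at the start of the pathway, was at 106 and 99.1 CPM in shNC and at 94.2 and 88.7 CPM in shELOVL5 (log2 fold change -0.16, adjusted p = 0.108). On the opposite strand, ACAT2 shares 1458 exonic bases with SOD2-OT1 and 1141 with SOD2 in GENCODE release 29. The counts used here have no entry under the identifiers of that release for SOD2-OT1 and SOD2. ACAT2 also shares 397 exonic bases with TCP1, a chaperonin gene at 618 to 628 CPM, and reads of overlapping genes cannot be told apart because the use of strand in counting is not given. The mevalonate kinase MVK (25.7 to 30.6 CPM over the 4 libraries) and the phosphomevalonate kinase PMVK (29.8 to 35.3 CPM) overlapped between the groups, with adjusted p = 0.662 and 0.677.

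Over the 18 listed synthesis enzymes together the median log2 fold change was -0.068. The groups lay apart for 13 (72.2%), 6 with higher and 7 with lower levels in shELOVL5, against 60.1% of all tested genes. Of the 11 listed enzymes from squalene to cholesterol, which are not all enzymes of these steps, 2 rose, 1 fell and 8 did not pass. Those that passed were 27.3%, against 20.4% of all tested genes. MSMO1, the monooxygenase that oxidizes the methyl groups at carbon 4 of the sterol ring (chr4:165327623-165343160, plus strand), had 1065 and 952 counts in shNC and 1696 and 1493 in shELOVL5. Its level went from 61.0 ± 2.38 to 93.7 ± 4.73 CPM (SD, n = 2), and the groups stood well apart. The log2 fold change was 0.62 (SE 0.0727, adjusted p = 0.000217), a size above that of 83.7% of tested genes. It passed under each of the 11 alternatives, with log2 fold changes of 0.56 to 0.67. SQLE, squalene epoxidase, an oxygen-dependent control point, stood at 105 and 100.4 CPM in shNC and at 126 and 118 CPM in shELOVL5 (log2 fold change 0.24, SE 0.0607, adjusted p = 0.0171). SQLE did not pass without shELOVL5 replicate 1 (adjusted p = 0.168), without shNC replicate 2 (0.0831) or with no filter on low counts (0.0569).

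FDFT1, squalene synthase, which commits farnesyl diphosphate to sterols, was the only one of the 18 listed synthesis enzymes to pass as lower. It was at 451 and 441 CPM in shNC and at 406 and 403 CPM in shELOVL5. Replicates were close and the groups did not overlap, and the log2 fold change was only -0.14 (SE 0.0378, adjusted p = 0.0241). It did not pass with scaling by total counts only (adjusted p = 0.071), with no filter on low counts (0.0532), or without shNC replicate 1 (0.0556), shELOVL5 replicate 1 (0.103) or shELOVL5 replicate 2 (0.14). Per kilobase of exon, the level of SQLE relative to that of FDFT1, the preceding enzyme, was 0.282 and 0.275 in shNC and 0.374 and 0.353 in shELOVL5.

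The other 8 listed late enzymes did not pass. LSS, lanosterol synthase, was at 102 and 98.3 CPM in shNC and at 111 and 110 CPM in shELOVL5, with no overlap, and did not pass (log2 fold change 0.14, SE 0.0577, adjusted p = 0.113). CYP51A1, the lanosterol demethylase that acts before TM7SF2 and MSMO1, was low at 17.1 and 15.6 CPM in shNC and at 12.8 and 14.0 CPM in shELOVL5 (log2 fold change -0.28, SE 0.161, adjusted p = 0.261). An overlapping gene of GENCODE 29 on the same strand covers 79.4% of the CYP51A1 exons. The counts used here have no entry under that gene's identifier, and how the overlap bears on the CYP51A1 count was not tested. NSDHL and HSD17B7, which complete the removal of the methyl groups at carbon 4 that MSMO1 begins, had log2 fold changes of -0.20 (SE 0.107, adjusted p = 0.22) and -0.17 (SE 0.119, adjusted p = 0.37). HSD17B7 has a near-identical copy, HSD17B7P2, with 36 and 21 counts in shNC and 58 and 27 in shELOVL5, against 398 to 467 for HSD17B7, and reads may be split between them. The sterol reductase TM7SF2, the isomerase EBP, the desaturase SC5D and the reductase DHCR7 had log2 fold changes of -0.08, -0.11, 0.14 and -0.06, with adjusted p from 0.291 to 0.639. Summed over the 11 enzymes, the level was 1074.5 and 1056 CPM in shNC and 1073 and 1061 CPM in shELOVL5, and the groups overlapped.

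None of the 4 genes of SREBP2 control passed by edgeR, DESeq2 or limma-voom. With 20.4% of all tested genes called, a count of 0 among 4 genes says little about the step. At an unadjusted p under 0.05 the count was 0 by edgeR, and 1 by total counts only and 1 without shNC replicate 2. The groups did not overlap for 3 of the 4 (75%), against 60.1% of all tested genes. SREBF2, which encodes SREBP2, was at 199 and 207 CPM in shNC and at 196 and 203 CPM in shELOVL5 (log2 fold change -0.02, SE 0.0475, adjusted p = 0.78). SCAP, the escort protein gene, was at 151 and 160 CPM in shNC and at 168 and 167 CPM in shELOVL5 (log2 fold change 0.11, SE 0.0516, adjusted p = 0.189). INSIG1, itself a known SREBP2 target and a retention protein gene, was abundant at 312 and 313 CPM in shNC and at 336 and 315 CPM in shELOVL5 (log2 fold change 0.06, SE 0.0442, adjusted p = 0.391). INSIG2, its paralog, was at 28.3 CPM in both shNC libraries and at 26.7 and 26.8 CPM in shELOVL5 (log2 fold change -0.08, SE 0.108, adjusted p = 0.669). Per kilobase of exon, INSIG1 stood 11.9 and 12.0 times above INSIG2 in shNC and 13.6 and 12.8 times in shELOVL5.

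Among the 4 genes of uptake and movement, 2 rose and 2 did not pass. A share of 50% in so short a list, against 20.4% of all tested genes, says little about the step. MYLIP, also called IDOL, a ubiquitin ligase that sends lipoprotein receptors to the lysosome and is a known LXR target (chr6:16129125-16148248, plus strand), had 58 and 76 counts in shNC and 183 and 177 in shELOVL5. Its level went from 4.08 ± 0.934 to 10.6 ± 0.170 CPM (SD, n = 2), 2.60-fold higher, which is the largest rise among the 31 members (log2 fold change 1.38, SE 0.246, adjusted p = 0.00294). It passed under each of the 11 alternatives, with log2 fold changes of 1.16 to 1.62. STARD4, a carrier that moves cholesterol between membranes, stood at 60.2 and 58.1 CPM in shNC and at 74.5 and 77.9 CPM in shELOVL5 (log2 fold change 0.37, SE 0.0739, adjusted p = 0.00595), and did not pass without shELOVL5 replicate 2 (adjusted p = 0.0615). The antisense gene STARD4-AS1, which shares 124 exonic bases with it, had 188 and 184 counts in shNC and 386 and 366 in shELOVL5 and also rose (log2 fold change 0.97, SE 0.148, adjusted p = 0.00112). How far the 2 genes share reads was not tested.

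NPC1 and NPC2, the pair that passes cholesterol out of the lysosome, did not pass. NPC1, the membrane protein gene, was at 75.4 and 71.6 CPM in shNC and at 79.0 and 79.2 CPM in shELOVL5 (log2 fold change 0.11, SE 0.0689, adjusted p = 0.331). It shares 604 exonic bases on the opposite strand with RMC1, which fell (log2 fold change -0.27, adjusted p = 0.0434). NPC2, the soluble partner, was at 29.3 and 34.2 CPM in shNC and at 37.1 and 32.0 CPM in shELOVL5, and the groups overlapped (log2 fold change 0.12, SE 0.12, adjusted p = 0.534).

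Of the 5 genes of storage and LXR-driven efflux, 1 rose, 1 fell and 3 did not pass. With so few genes, a share of 40% that passed, against 20.4% of all tested genes, says little about the step. NR1H2, the gene of LXR beta (chr19:50329653-50382982, plus strand), had 984 and 1024 counts in shNC and 1601 and 1644 in shELOVL5. Its level went from 60.9 ± 4.16 to 95.6 ± 5.57 CPM (SD, n = 2), 1.57-fold higher (log2 fold change 0.65, SE 0.0776, adjusted p = 0.000238), and it passed under each of the 11 alternatives, with log2 fold changes of 0.58 to 0.72. NR1H3, the gene of LXR alpha, was at 10.1 and 9.10 CPM in shNC and at 10.5 and 8.53 CPM in shELOVL5, with overlapping groups (log2 fold change -0.02, SE 0.209, adjusted p = 0.971). Per kilobase of exon, NR1H2 stood 6.91 and 8.47 times above NR1H3 in shNC and 10.6 and 14.1 times in shELOVL5. The antisense neighbour of NR1H3, ACP2, shares 189 exonic bases with it and fell (log2 fold change -0.47, adjusted p = 0.0125).

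MYLIP and ABCG1, both known LXR targets, changed in opposite directions. ABCG1, which loads cholesterol onto lipoprotein particles outside the cell (chr21:42199689-42297244, plus strand), had 428 and 434 counts in shNC and 265 and 302 in shELOVL5. Its level went from 26.1 ± 1.31 to 16.7 ± 2.2 CPM (SD, n = 2) and was lower by 1.56-fold. Its log2 fold change was -0.64 (SE 0.139, adjusted p = 0.00853), and without shELOVL5 replicate 1, the lower library, the log2 fold change was -0.52 (adjusted p = 0.0819). ABCA1, the pump that exports cholesterol to apolipoproteins (chr9:104781002-104928237, minus strand), was the least expressed member, with 14 and 13 counts in shNC and 3 in each shELOVL5 library. ABCA1 did not pass (log2 fold change -2.16, SE 0.788, adjusted p = 0.0807). The ratio of its scaled counts was 0.216, with an exact 95% conditional binomial interval of 0.0729 to 0.534 that covers counting error only. The gene entered the test through its shNC libraries alone, and the interval does not account for that. SOAT1, the enzyme that esterifies cholesterol for storage in lipid droplets, was at 79.7 and 86.6 CPM in shNC and at 80.1 and 83.9 CPM in shELOVL5 (log2 fold change -0.02, SE 0.0708, adjusted p = 0.879). Among the genes known as LXR targets, both shELOVL5 libraries thus lay above both controls for MYLIP and below them for ABCG1. In bulk RNA, fewer cells expressing a gene and less RNA per cell cannot be told apart.

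**Figure D3:**
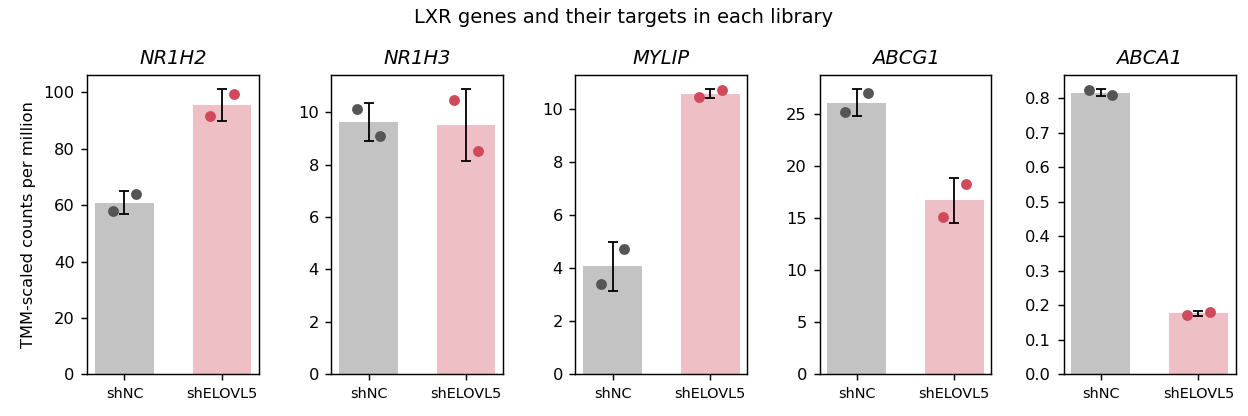
TMM-scaled CPM (linear axes from 0) of the 2 LXR genes and of MYLIP, ABCG1 and ABCA1, with bars for the mean of 2 libraries, black lines for its SD and points for libraries. NR1H2 and MYLIP were higher and ABCG1 lower in both shELOVL5 libraries, and the ABCA1 points rest on 3 to 14 counts.

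The order of the members by level per kilobase of exon was much the same in both groups. In shNC it was led by FDPS (92.6 CPM per kilobase), FDFT1 (85.7) and INSIG1 (85.6), and in shELOVL5 by INSIG1 (89.2), FDPS (86.8) and FDFT1 (77.7). In shNC, FDFT1 and INSIG1 did not differ beyond the spread of their libraries. MSMO1 moved from rank 13 (21.1 CPM per kilobase) to rank 7 (32.4), the largest step in the order. The lowest levels in shNC were those of ABCG1 (4.27 CPM per kilobase), NR1H3 (2.12), MYLIP (1.34) and ABCA1 (0.072), and MYLIP moved past ABCG1 and NR1H3 to 3.49 in shELOVL5.

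A further 32 genes of sterol metabolism that are not members were read in the same fit, of which 29 were tested, 4 rose, 7 fell and 18 did not pass, with a median log2 fold change of -0.082. The share that rose was 13.8%, against 9.22% of all tested genes, and the share that fell was 24.1%, against 11.2%. Of 4 lipoprotein receptor genes in the list, grouped after their values were seen, VLDLR, LRP8 and LRP1 fell, and SCARB1 was at 39.0 and 37.8 CPM in shNC and at 45.7 and 42.9 CPM in shELOVL5 and did not pass (log2 fold change 0.21, adjusted p = 0.154). VLDLR, a lipoprotein receptor gene, was at 97.2 and 96.2 CPM in shNC and at 49.9 and 51.8 CPM in shELOVL5, a log2 fold change of -0.93 (SE 0.07, adjusted p = 1.1e-05). LRP8, a related receptor gene, fell by 0.61, LRP1 by 0.43 and GRAMD1A, a sterol transporter gene, by 0.27 on the log2 scale, all named after their values were seen. MBTPS1, the Golgi protease gene for the first cut of SREBP precursors, was at 152 and 146 CPM in shNC and at 92.0 and 99.8 CPM in shELOVL5, a log2 fold change of -0.63 (SE 0.0609, adjusted p = 5.54e-05). SREBF1, the paralog of SREBF2 that is known for lipogenic genes, had a log2 fold change of -0.54 (adjusted p = 0.000136). LBR, a nuclear envelope sterol reductase with the same reaction as TM7SF2, had one of -0.38 (adjusted p = 0.000154).

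Those that rose included NCEH1 and LIPA, hydrolases of cholesterol esters, with log2 fold changes of 0.56 (adjusted p = 0.0139) and 0.35 (adjusted p = 0.0272), and the sterol transporter gene GRAMD1B (0.48, adjusted p = 0.0435). None of the 4 that rose passed without shELOVL5 replicate 1 or without replicate 2. LIPA and NCEH1 passed without shNC replicate 1 (adjusted p = 0.00259 and 0.00473), where GRAMD1B did not (0.119), and none of these 3 genes passed without shNC replicate 2 (0.139, 0.0791 and 0.128). Of the falls, 5 held without shELOVL5 replicate 1 and 6 without replicate 2, and LRP1 was lost in both cases (adjusted p = 0.189 and 0.0886) and without shNC replicate 2 (0.192), as well as by DESeq2 (0.0657), by limma-voom (0.0564), with robust=FALSE (0.0538) and with no filter on low counts (0.0939). GRAMD1A was lost without shELOVL5 replicate 1 (0.133) and without shNC replicate 1 (0.0534).

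**Figure D4:**
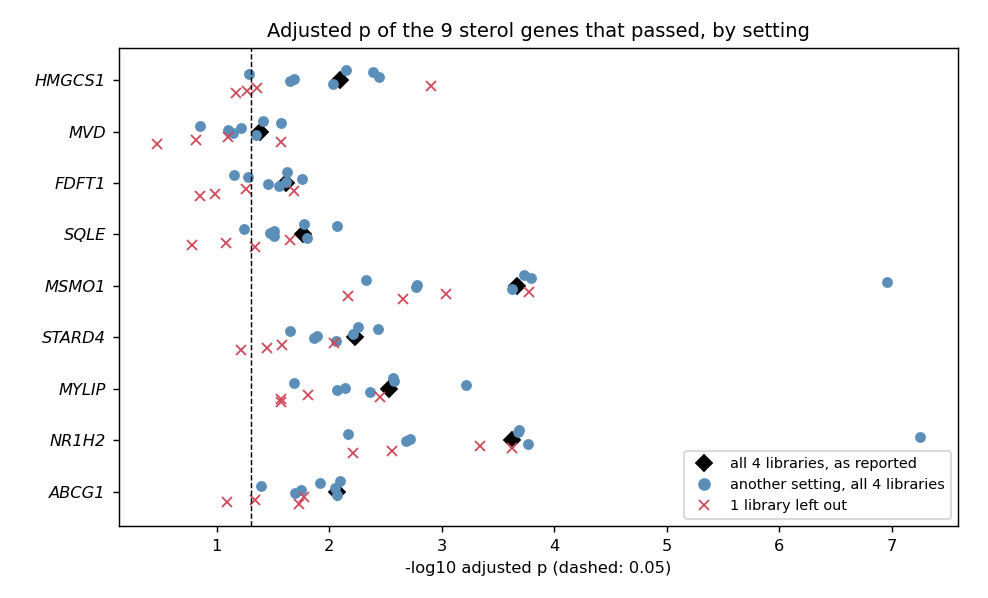
Minus log10 of the adjusted p for the 9 members that passed, with all 4 libraries as reported (black), under another setting (blue) and with 1 library left out (red crosses), where the dashed line marks 0.05. MSMO1, MYLIP and NR1H2 stay right of the line under all 11 alternatives, and the other 6 fall left of it in at least 1.

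Across the 11 alternatives, 3 of the 9 members that passed (MSMO1, MYLIP and NR1H2) did so every time. With a library left out, the members that rose numbered 7 without shNC replicate 1, 5 without shNC replicate 2, 5 without shELOVL5 replicate 1 and 4 without shELOVL5 replicate 2. Those that fell numbered 1, 2, 0 and 1, and in the case of 0 by edgeR, 4 had an unadjusted p under 0.05 and the same direction.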

How the data were processed

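RNA was measured by sequencing in 4 libraries, grouped and numbered by their titles. Per the labels' protocols, total RNA came from a TRIzol extraction and libraries from an Illumina TruSeq RNA kit. The authors deposited whole-number read counts per Ensembl gene, not normalized. HISAT2 2.2.0, StringTie and build hg38 were used, per the submitters' processing notes. The sources used here do not give the annotation, the counting step or its use of strand.

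From these counts, genes were filtered (filterByExpr, minimum count 10), scaled by TMM and tested two-sided with edgeR 4.0.16 in R 4.3.3 (glmQLFit with robust=TRUE, glmQLFTest, group as the only term), and the fit was tested on simulated data. There, false calls made up more of the calls than the nominal share, so a call with an adjusted p just under the threshold is less certain than its value reads. Alternatives were RLE factors, total counts only, no filter, DESeq2 1.42.0, limma-voom (limma 3.58.1), robust=FALSE, a replicate block and leaving out each library. Coordinates, exon lengths and overlaps came from GENCODE release 29, and promoters from RefSeq on GRCh38.p14. All 31 members were named, and of the other sterol genes up to 4 in each direction with the smallest p, of which 1 is not reported here. Members, lists and tests were chosen with earlier results of these data known. Promoter motifs were chosen after the data were seen. Library totals of 16254002 to 17338719 counts set the counting precision.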

Additional observations from a re-analysis of the deposited data

How the results depend on the processing

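Of 340 values of single members under the 11 alternatives, 309 kept their direction and side of the threshold, 20 no longer passed, 1 newly passed and 10 changed sign. No member that passed changed sign. The 10 were SREBF2 (log2 fold change 0.011), SOAT1 (0.015) and NR1H3 (0.019) by total counts only, and 7 with a library left out. Over the 4 ways to leave out a library, MVK ranged from -0.21 to 0.023, PMVK from -0.052 to 0.20, DHCR7 from -0.13 to 0.0087, SOAT1 from -0.083 to 0.033 and NR1H3 from -0.18 to 0.12.

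Counts of genes past the threshold depended on the setting. With no filter on low counts, where 31428 genes were tested, 4 members rose and 1 fell, 0 other sterol genes rose (5 at an unadjusted p under 0.05) and 899 of all genes rose. By total counts only, 1 member fell, and the median of all genes moved from 0.006 to 0.042. Other sterol genes that rose numbered 2 by DESeq2, 1 with robust=FALSE and 2 with a replicate block. Leaving out each library in turn gave 4 to 7 members that rose and 0 to 2 that fell, 0 to 2 other sterol genes that rose and 5 to 7 that fell, and 696 to 1347 of all genes that rose and 1176 to 1616 that fell. Without shELOVL5 replicate 1 or 2, 3 and 4 other sterol genes rose at an unadjusted p under 0.05. With the replicate block, 7 members rose and 2 fell, as without it. Deviations of same-numbered libraries had a correlation of -0.03 over 12247 genes. With 2 libraries per group this is a single comparison, and whether same-numbered libraries were handled together cannot be told from it. Why counts moved was not tested. Fits with a library left out also rest on fewer libraries. With 2 libraries per group, low genes were measured with little precision at this depth. ABCA1 did not pass although its log2 fold change was -2.16 (SE 0.788), and NR1H3 had an SE of 0.209. The smallest detectable change was not computed.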

Other observations

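Antisense genes beside the sterol genes moved unevenly. RUSC1-AS1, which shares 693 exonic bases on the opposite strand with FDPS, had 308 and 245 counts in shNC and 456 and 346 in shELOVL5 and rose by 0.49 on the log2 scale (edgeR, adjusted p = 0.0485). IDI2-AS1 beside IDI1 (13 and 9 counts against 24 and 29, adjusted p = 0.138), AC114947.2 beside HMGCS1 (71 and 76 against 96 and 97, adjusted p = 0.391) and SREBF2-AS1 (156 and 126 against 109 and 133, adjusted p = 0.505) did not pass. MMAB, which shares 306 exonic bases with MVK and encodes an enzyme of cobalamin metabolism, had 703 and 584 counts in shNC and 554 and 518 in shELOVL5 (adjusted p = 0.0688). Processed copies named after FDPS, IDI1 and CYP51A1 held few reads, with sums of 7 to 18, 0 and 0 to 4 counts per library.

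The members together took 0.295% and 0.293% of the counts in shNC and 0.313% and 0.312% in shELOVL5.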
